A study of Mus musculus with 10 samples.

Results

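The genes described here are 10 members of the machinery that shows peptides on MHC class I: the heavy chains H2-K1 and H2-D1, their light chain B2m, the peptide transporter subunits Tap1 and Tap2, the loading factor Tapbp, the immunoproteasome subunits Psmb8, Psmb9 and Psmb10, and the transactivator Nlrc5. They were taken by gene symbol from a table of 55401 genes, all 10 were found under 1 identifier each, and all 10 passed the filter on low counts that left 17464 genes. RNA was sequenced from 10 tumors grown under the skin of the flank of male C57BL/6J mice with diet-induced obesity, 7 to 17 weeks old when they were injected with KPN1.1 cells. KPN1.1 is a mouse lung adenocarcinoma line that carries the NINJA neoantigen allele, and it was the only line in these libraries. From when tumors could be felt, 5 mice received liraglutide, an agonist of the GLP-1 receptor, at 0.2 μg per g body weight daily into the peritoneum, and 5 received the PBS vehicle. Both groups therefore had diet-induced obesity and tumors of the same line, and no lean or tumor-free tissue was analysed here. In obese mice the study reported more weight loss and lighter tumors with liraglutide than with vehicle. Body weight and tumor size are not given for these 10 samples. Tumors were harvested between days 19 and 22, and a frozen fragment of each gave the RNA, so tumor cells and the host cells among them were measured together.

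MHC class I molecules hold short peptides cut from proteins inside the cell and present them to CD8+ T cells, and their loss removes a tumor cell from the view of those T cells. Proteasomes cut the proteins, the transporter associated with antigen processing moves the peptides into the endoplasmic reticulum, and tapasin and its partners load them onto a heavy chain paired with beta-2 microglobulin. Interferon-gamma raises the whole set, in part through IRF1, and NLRC5 is the transactivator that acts on class I promoters. Nearly all nucleated cells carry class I, leukocytes at high levels, so these transcripts have no single cell of origin in a tumor.

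Of the 10 genes, 4 are neighbours. On GRCm39, with positions from GENCODE M39, the peptide processing genes of the MHC region stand next to each other on chromosome 17: Psmb9 (chr17:34400960-34406738, minus strand), Tap1 (chr17:34405996-34416199, plus strand), Psmb8 (chr17:34416690-34420428, plus strand) and Tap2 (chr17:34422501-34435829, plus strand). Tapbp (chr17:34134873-34148267, plus strand), H2-K1 (chr17:34214987-34219321, minus strand) and H2-D1 (chr17:35481691-35486475, plus strand) are on the same chromosome. B2m is on chromosome 2 (chr2:121977957-121983594, plus strand), and Psmb10 (chr8:106662362-106665077, minus strand) and Nlrc5 (chr8:95160984-95253900, plus strand) are on chromosome 8. Tap1 and Psmb9 overlap on opposite strands by 743 exonic bases, which is 12.4% of the merged exons of Tap1 and 19.6% of those of Psmb9. The strand setting of the counting is not given in the sources used here, so reads from that stretch cannot be told apart, and the same holds for the exonic overlaps of H2-K1, H2-D1, Tap2, Tapbp, Psmb8 and Nlrc5 with antisense noncoding genes.

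Promoters of some of these genes hold the same short motifs, shown here because the genes varied together across tumors. RefSeq promoter windows (GRCm38.p6) were present for 8 of the genes, with 2 overlapping windows for H2-K1, and the 250 bases before each start were searched on both strands. The kappa B motif GGGANTCCC was found in 3 of these 9 windows, those of H2-K1 and H2-D1, against 0.636% of all 32851 promoter windows. It is shown in capitals in the sense of each gene, at chr17:34000438-34000467 (minus strand) for H2-K1 and chr17:35262914-35262943 (plus strand) for H2-D1.
H2-K1 kappa B: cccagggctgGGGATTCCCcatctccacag
H2-D1 kappa B: cccagggctgGGGATTCCCcatctcctcag
Directly downstream of it both genes held the interferon-stimulated motif GAANNGAAA, read on the opposite strand and found in 6.31% of all windows, at chr17:34000418-34000447 and chr17:35262934-35262963. B2m held the related GAAANNGAA, found in 7.13% of all windows, at chr2:122147538-122147567 (plus strand). The 2 interferon-stimulated motifs can overlap each other where they occur in series.
H2-K1 interferon-stimulated: atctccacagTTTCACTTCtgcacctaacc
H2-D1 interferon-stimulated: atctcctcagTTTCACTTCtgcacctaacc
B2m interferon-stimulated: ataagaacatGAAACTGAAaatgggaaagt
The cAMP response half-site TGACG, the core of the X2 element of class I promoters, was in 6 of the 9 windows against 17.8% of all. The matches are at chr17:34000371-34000400 (H2-K1, minus strand), chr17:35262981-35263010 (H2-D1, plus strand), chr2:122147597-122147626 (B2m, plus strand) and chr17:34187458-34187487 (Tap1, plus strand), and the last is also the match of the divergent Psmb9.
H2-K1 half-site: tccggacactgtTGACGcgcagtcagctct
H2-D1 half-site: ccgggacactgaTGACGcgctggcaggtct
B2m half-site: ctaggagactggTGACGacctccggatctg
Tap1 and Psmb9 half-site: cccagagacaggTGACGacagagggtcctg
CCAAT was in 7 of the 9 windows against 33.8% of all, and the gamma-activated motif TTCNNNGAA was in 1, that of Psmb8, against 7.02%. Tapbp held CCAAT alone, Psmb8 the gamma-activated motif alone, and the window of Psmb10 held none of the 6 motifs. These are letter matches in a reference sequence and no binding was measured.

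Total counts ranged from 9927942 to 14480593 per tumor, and 3 counts, taken as the smallest level that could be shown, were worth between 0.207 and 0.315 CPM, for counting error only. The lowest count of any of the 10 genes in a tumor was 36 (Psmb9), so the spread between tumors and not the counting set the precision here. CPM is the count of a gene relative to the library size after TMM scaling, as edgeR gives it. Of the lung adenocarcinoma and epithelial markers, Nkx2-1 (17.7 to 132 CPM), Sftpb (65.1 to 530 CPM) and the keratins were present in every tumor, while Napsa and Epcam stayed below 5 CPM and Sftpc was at 0 in 1 tumor.

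With liraglutide, all 10 genes had a higher mean than with vehicle, and no gene passed the test. The log2 fold changes from edgeR's quasi-likelihood test ran from 0.23 (H2-K1) to 0.70 (Tapbp), and the Benjamini-Hochberg adjusted p over all genes ran from 0.541 to 0.895. A gene was called at an adjusted p under 0.05 with an absolute log2 fold change over 0.58, and edgeR called 0 of 17464 genes, which is 0%, with 694 higher and 981 lower at an unadjusted p under 0.05. DESeq2 called 17 genes (9 without independent filtering) and limma-voom 0, and none of the 10 was among them. Independent filtering left Tap2, Psmb8, Psmb9 and Psmb10 without an adjusted p, so DESeq2 could call these only without it. The higher genes at an unadjusted p under 0.05 were 3.97% of all genes and 0 of the 10. A positive log2 fold change was found for 47.4% of all genes, and a log2 fold change over 0.58 for 5.38% of all genes and for 2 of the 10, Tapbp and Tap2. The median log2 fold change was 0.40 over the 10 genes and -0.02 over all genes tested, and limma-voom gave 0.86 over the 10 genes.

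**Figure D1:**
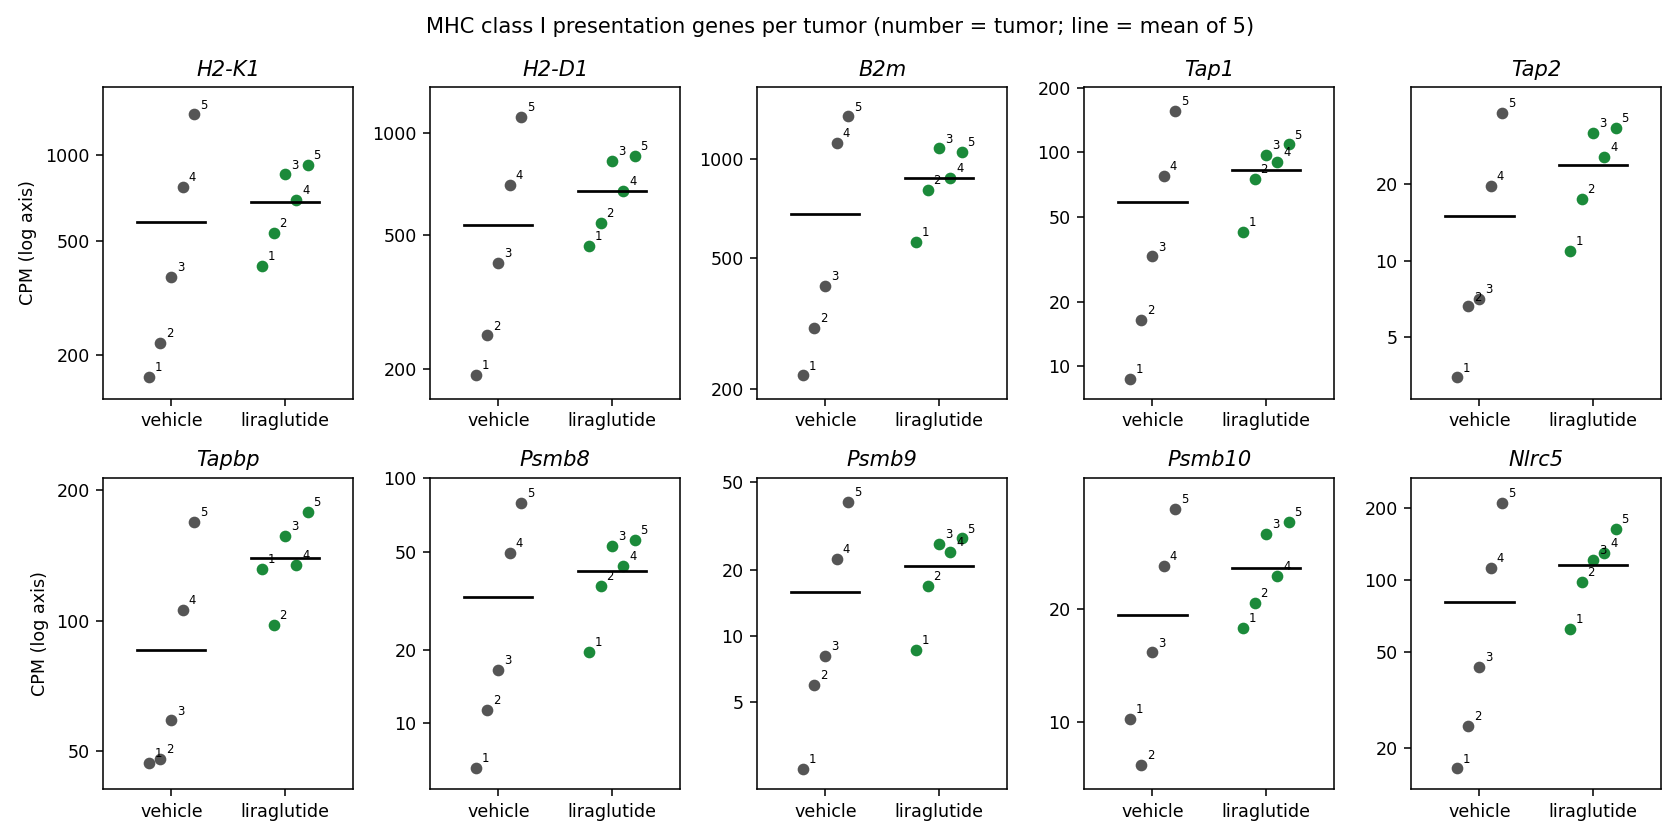
CPM (log axis) of each of the 10 genes in each tumor, with vehicle tumors in grey, liraglutide tumors in green, the tumor number beside each point and a line at the arithmetic mean of 5. In every panel vehicle tumors 1, 2 and 3 sit below all 5 liraglutide tumors, and vehicle tumor 5 is the highest of the 10 in every panel except Tapbp.

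The heavy chains were the first group. H2-K1, the K heavy chain that presents to CD8+ T cells, was at 168, 220.3, 374.5, 772.3 and 1382 CPM in vehicle tumors 1 to 5, and at 409.2, 532.1, 853.1, 697.5 and 918.8 CPM in liraglutide tumors 1 to 5. All 5 liraglutide tumors fell inside the range of the vehicle tumors. The mean was 583.5 ± 505 CPM with vehicle and 682 ± 214 CPM with liraglutide (SD, n = 5 each), a log2 fold change of 0.23 ± 0.51 (SE, as after each fold change here). H2-D1, the D heavy chain, was at 191.4, 251.2, 412.8, 702 and 1121 CPM with vehicle and at 463.9, 541.1, 827.9, 675.5 and 857.4 CPM with liraglutide (log2 fold change 0.33 ± 0.42). As with H2-K1, 3 vehicle tumors were below and 1 was above all 5 liraglutide tumors. B2m, the light chain that every class I heavy chain needs to reach the surface, was at 219.7, 306.7, 409.6, 1115 and 1342 CPM with vehicle and at 559.5, 804, 1073, 875.1 and 1048 CPM with liraglutide. Here vehicle tumors 4 and 5 both exceeded every liraglutide tumor, and the log2 fold change was 0.36 ± 0.46.

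The transporter and its loading factor came next. Tap1, a subunit of the peptide transporter, was at 8.71, 16.4, 32.6, 77.9 and 156 CPM in vehicle tumors 1 to 5 and at 42.2, 75.3, 97.4, 89.9 and 109 CPM in liraglutide tumors 1 to 5. The vehicle tumors spanned 17.9-fold and the liraglutide tumors 2.58-fold, with a log2 fold change of 0.50 ± 0.64. Tap2, the other subunit, was at 3.45, 6.59, 7.04, 19.7 and 38.3 CPM with vehicle and at 10.9, 17.5, 32, 25.7 and 33.4 CPM with liraglutide (log2 fold change 0.67 ± 0.58). Only vehicle tumor 5 was above all liraglutide tumors in Tap1 and Tap2. Tapbp encodes tapasin, which bridges the transporter and the empty heavy chain, and it was at 47, 48, 58.9, 106 and 169 CPM with vehicle and at 131.5, 98, 157, 135 and 178 CPM with liraglutide. It was the single gene of the 10 whose highest tumor was a liraglutide tumor, and 4 of the 5 liraglutide tumors exceeded 4 of the 5 vehicle tumors. Its means were 85.9 ± 52.6 and 139.8 ± 30.1 CPM (SD, n = 5 each), its log2 fold change was 0.70 with a 95% interval of -0.06 to 1.46, and its adjusted p in edgeR was 0.541 (unadjusted p = 0.0660). In the annotation 25.2% of the 100-base windows of Tapbp also occur in another gene, mostly the antisense Gm19412, and 923 of its exonic bases overlap Zbtb22 on the same strand.

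The immunoproteasome subunits had a similar order of tumors. Psmb8, which supplies the chymotrypsin-like activity of the immunoproteasome, was at 6.56, 11.3, 16.5, 49.7 and 79.2 CPM in vehicle tumors 1 to 5 and at 19.5, 36.5, 52.8, 44 and 55.9 CPM in liraglutide tumors 1 to 5. Psmb9 was at 2.49, 5.98, 8.09, 22.3 and 40.5 CPM with vehicle and at 8.64, 16.8, 26.2, 24 and 27.7 CPM with liraglutide, and 33.2% of its 100-base windows are shared with Tap1. Psmb10 was at 10.2, 7.71, 15.3, 26 and 36.9 CPM with vehicle and at 17.8, 20.8, 31.7, 24.6 and 34.1 CPM with liraglutide. Vehicle tumor 5 was above every liraglutide tumor in all 3 subunits, and the log2 fold changes were 0.35 ± 0.59, 0.38 ± 0.62 and 0.42 ± 0.39 (Psmb8, Psmb9 and Psmb10). Nlrc5, the transactivator, was at 16.4, 24.6, 43.6, 113 and 210 CPM with vehicle and at 62.6, 98.5, 122, 131 and 163.5 CPM with liraglutide, a log2 fold change of 0.50 ± 0.60. Nlrc5, B2m and Psmb10 share no 100-base window with another gene.

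The groups overlapped in all 10 genes, while 0.607% of all genes were higher with liraglutide without overlap. In each of the 10 genes 3 vehicle tumors, numbers 1 to 3, lay below all 5 liraglutide tumors, and 14.9% of all genes had at least 3 vehicle tumors there. The medians were further apart than the means: Tap1 had medians of 32.6 and 89.9 CPM against means of 58.4 and 82.8 CPM, and Nlrc5 medians of 43.6 and 122 CPM against means of 81.5 and 115 CPM. Mean log2 CPM differed by between 0.59 (H2-D1) and 1.14 (Tap1). The two-sided exact permutation test on log2 CPM gave unadjusted p from 0.0873 (Tapbp) to 0.341 (H2-K1), where 5 against 5 tumors can reach 0.00794. The fold changes depended on single tumors. Without vehicle tumor 5 the median log2 fold change of the 10 genes was 1.05, and in edgeR 6 of the 10 had an unadjusted p under 0.05 (H2-D1, Tap1, Tap2, Tapbp, Psmb10 and Nlrc5), while 6.1% of all genes did so in the higher direction and the adjusted p stayed at 0.303 or above. Without vehicle tumor 1 the median was 0.18 and H2-K1 stood at -0.01. Without vehicle tumor 2 the median was 0.20 and Psmb10 was at its lowest, 0.22, and without vehicle tumor 4 the log2 fold change of B2m was 0.62. No omission led to a call.

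**Figure D2:**
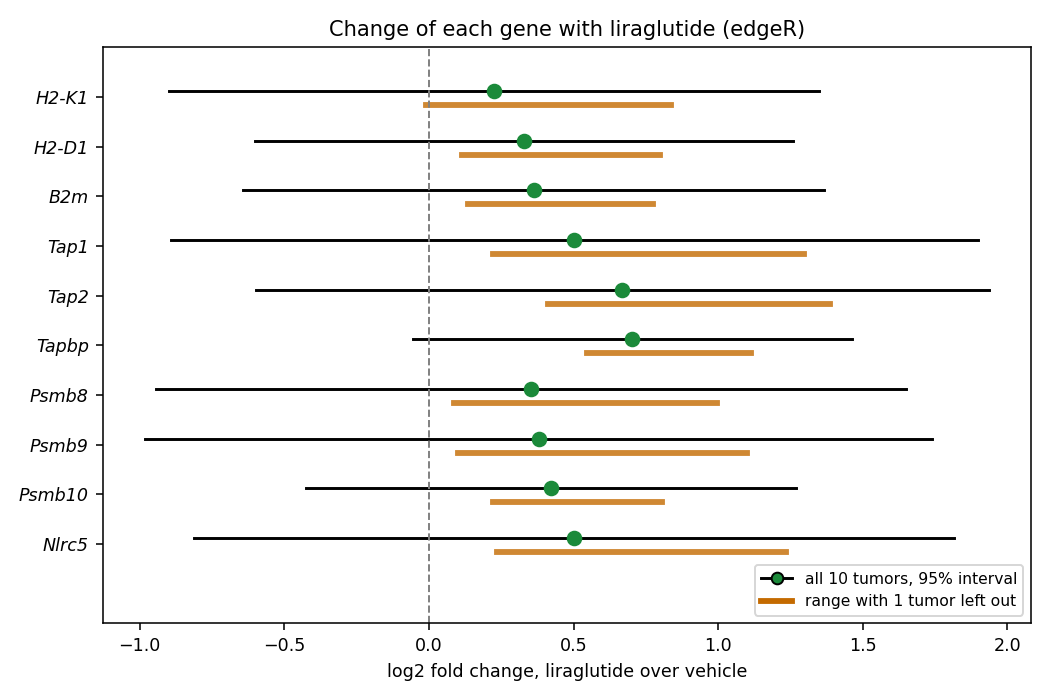
log2 fold change of liraglutide over vehicle (x axis) for each gene from edgeR, with the 95% interval in black and, in orange, the range of the fold change when each of the 10 tumors is left out in turn. All 10 points lie above 0, all 10 intervals include 0, and the ranges reach from -0.01 (H2-K1) to 1.39 (Tap2).

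The vehicle tumors were spread more widely than the liraglutide tumors. The SD of log2 CPM was larger with vehicle than with liraglutide in all 10 genes, as in 70.7% of all genes. It was 1.67 against 0.54 for Tap1, 1.52 against 0.52 for Nlrc5, 1.26 against 0.48 for H2-K1 and 0.81 against 0.32 for Tapbp. The median ratio of the SDs, vehicle to liraglutide, was 2.55 over the 10 genes and 1.30 over all genes. The highest vehicle tumor exceeded the lowest by 3.61-fold (Tapbp) to 17.9-fold (Tap1), and the highest liraglutide tumor exceeded the lowest by 1.82-fold (Tapbp) to 3.21-fold (Psmb9). Together the 10 genes took 0.0674% to 0.444% of the counts of a vehicle tumor and 0.173% to 0.358% of those of a liraglutide tumor. The difference in spread is a description, and no test was made of it.

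**Figure D3:**
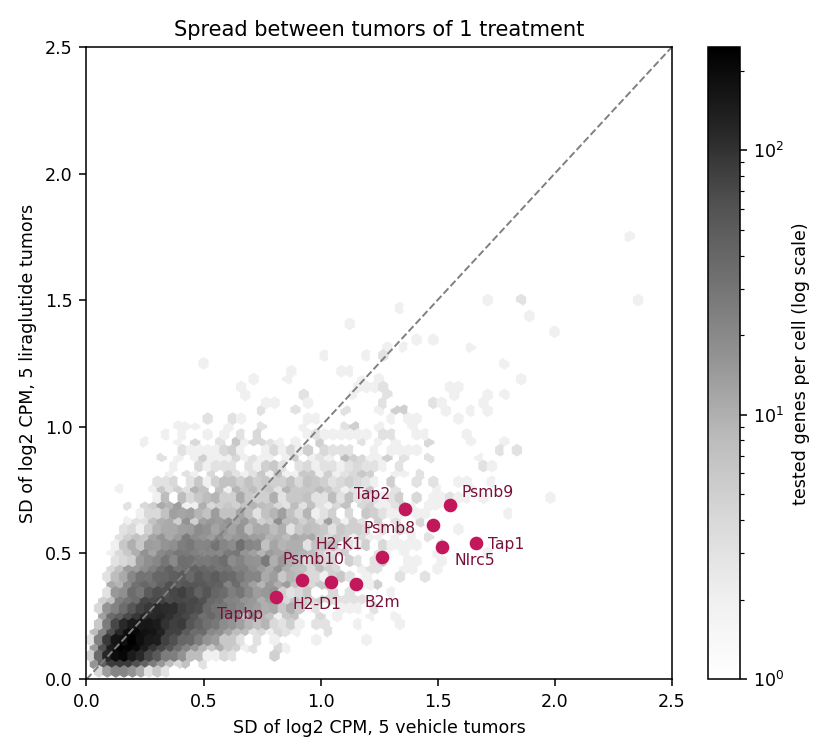
SD of log2 CPM over the 5 vehicle tumors (x axis) against that over the 5 liraglutide tumors (y axis), with all tested genes as grey cells on a log color scale, the 10 genes in red and equal spread as a dashed line; 19 genes with an SD over 2.5 lie outside the axes. The 10 genes lie below the line, at a vehicle SD from 0.81 to 1.67 and a liraglutide SD from 0.32 to 0.69.

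Levels were compared between genes per length. In RPKM, with counts divided by the merged exon length, B2m was highest at a mean of 368 over the 10 tumors, and it was above H2-D1 in all 10. H2-D1 and H2-K1 came next at 202 and 199 RPKM and their order was not the same in every tumor, with H2-D1 higher in 7 of 10. Reads of near-identical class I heavy chains may have been shared out between genes, since 4.21% of the H2-D1 windows of 100 bases also occur in H2-Q1 and smaller shares in other class I genes. Tapbp followed at 25.6 RPKM, above Psmb10 in all 10 tumors. Psmb10 (13 RPKM), Tap1 (11.7), Nlrc5 (11.6) and Psmb8 (10.9) were not separated from each other, as neighbours in this order kept it in 7, 4 and 7 of the 10 tumors. Psmb9 (4.81 RPKM) and Tap2 (4.08) were the lowest, in that order in 8 of 10 tumors. These orders hold for merged exon lengths, which exceed the length of 1 transcript unequally. Psmb9 has 3800 merged bases and a reference transcript of 1353, and Nlrc5 has 8493 and 7578. H2-K1 has 3185 and 1619, and H2-D1 has 2992 and 2117. Another length can therefore change the order, including that of H2-K1 and H2-D1 and the place of Psmb9.

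Each immunoproteasome subunit takes the place of a constitutive one, Psmb8 of Psmb5, Psmb9 of Psmb6 and Psmb10 of Psmb7, so their ratio within a tumor needs no library size. The constitutive subunits had log2 fold changes of -0.03 ± 0.21 (Psmb5), -0.12 ± 0.08 (Psmb6) and -0.12 ± 0.11 (Psmb7), with adjusted p in edgeR of 0.975, 0.643 and 0.730. Reads per base of Psmb8 to Psmb5 gave ratios of 0.331, 0.565, 0.497, 1.73 and 2.51 in vehicle tumors 1 to 5 and of 0.651, 2.25, 1.94, 1.55 and 1.90 in liraglutide tumors 1 to 5. The ratio of Psmb9 to Psmb6 was 0.0295, 0.0635, 0.0828, 0.219 and 0.447 with vehicle and 0.0988, 0.191, 0.314, 0.257 and 0.324 with liraglutide. Psmb10 to Psmb7 stood at 1.16, 0.699, 1.32, 2.62 and 3.73 with vehicle and at 1.96, 1.95, 3.22, 2.5 and 4.23 with liraglutide. The groups overlapped in all 3 ratios, and in each of them vehicle tumors 1 to 3 were below all 5 liraglutide tumors. The mean log2 ratio was higher with liraglutide by 0.88, 1.01 and 0.73, with two-sided exact permutation p of 0.222, 0.238 and 0.183, unadjusted for the 3 ratios tested. Without vehicle tumor 5 the difference for Psmb9 to Psmb6 was 1.51 (exact permutation p = 0.0476), and without vehicle tumor 1 it was 0.54. Without vehicle tumor 1 the difference for Psmb8 to Psmb5 was also 0.54, and for Psmb10 to Psmb7 it was 0.43 without vehicle tumor 2. Psmb5 has 27.3% of its 100-base windows in common with other genes, and 20% of those of Psmb7 are shared with the antisense Nek6. The height of these ratios depends on how such reads were counted and on the lengths used. These were merged exons: 2817 exonic bases of Psmb7 overlap Nek6, while its reference transcript has 1160 bases. Psmb10 has 1732 merged bases and a transcript of 1312. A ratio above or below 1 is therefore not read as more or less of a subunit. The lengths are the same in every tumor, so comparisons between tumors do not depend on them.

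**Figure D4:**
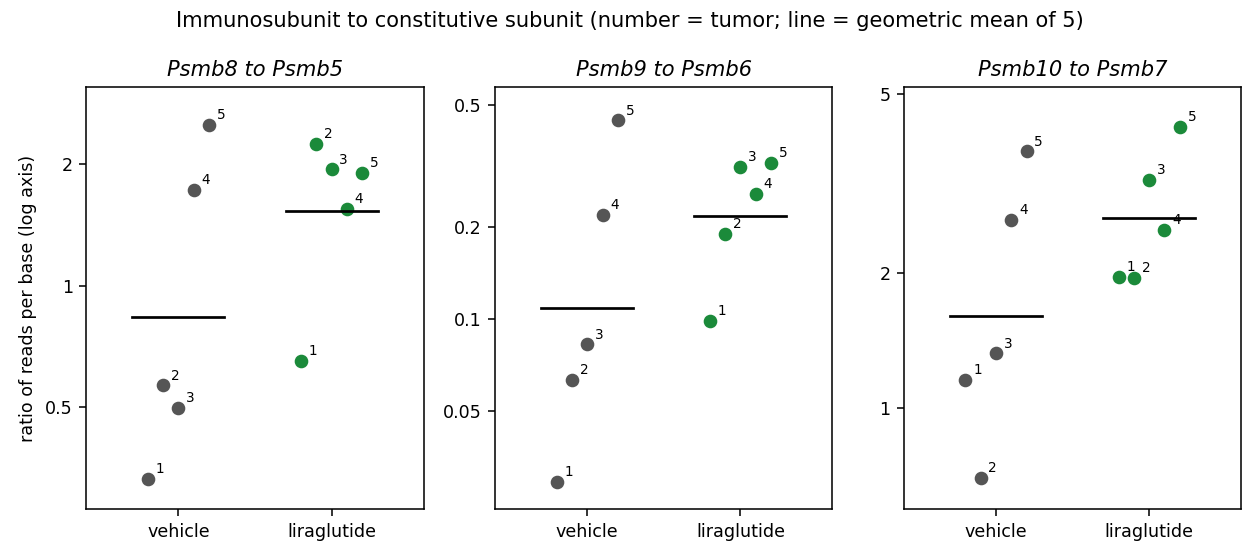
Ratio of reads per base of merged exon length, for each immunoproteasome subunit to the constitutive subunit it replaces (log axis). There is 1 point per tumor labelled by its number and a line at the geometric mean of 5. The geometric means are 0.834 and 1.53 for Psmb8 to Psmb5, 0.109 and 0.218 for Psmb9 to Psmb6, and 1.6 and 2.65 for Psmb10 to Psmb7 (vehicle and liraglutide).

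The other genes of the pathway were taken by list, and none of them was called. Of 13 other class I heavy chains 9 passed the filter, all 9 had a positive log2 fold change (median 0.21), and none had an unadjusted p under 0.05. The highest were H2-M3, which presents formylated peptides (0.60 ± 0.32, unadjusted p = 0.0865 in edgeR), and H2-Q4 (0.58 ± 0.60), and the lowest were H2-T24 (0.11 ± 0.14) and H2-T10 (0.11 ± 0.56). The 12 other genes of peptide loading, trimming and transport across the membrane had a median of -0.04, with 5 positive, 0 higher and 2 lower at an unadjusted p under 0.05, as were 5.62% of all genes in the lower direction. Those were Sec61g, a subunit of the Sec61 channel, at -0.52 ± 0.11, and the peptidase Tpp2 at -0.23 ± 0.09, both without overlap between the groups, as were 0.888% of all genes in the lower direction, with adjusted p in edgeR of 0.482 and 0.502. At the other end were the trimming peptidase Erap1 (0.36 ± 0.25) and Tapbpl, a tapasin relative that edits peptides (0.34 ± 0.40), and the chaperone Hspa5 had -0.27 ± 0.19.

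Of 9 proteasome activator and assembly genes, 4 had a positive and 4 a negative log2 fold change, with a median of 0 and none at an unadjusted p under 0.05. The interferon-inducible activator subunits Psme1 (0.39 ± 0.24) and Psme2 (0.29 ± 0.25) were highest, and the activators Psme4 (-0.24 ± 0.14) and Psme3 (-0.13 ± 0.12) were lowest. Of 16 upstream regulators 15 were tested, 10 were positive, the median was 0.13, and none had an unadjusted p under 0.05. Irf1, an interferon-induced transcription factor, was at 0.60 ± 0.37, and Creb1 (-0.17 ± 0.14) and the kinase Jak2 (-0.15 ± 0.11) were lowest. Ifng itself was not tested, with at most 11 counts in a tumor. A list of 14 receptor genes of T and NK cells held receptors and coreceptors for class I. It also held genes that do not read class I themselves, the CD3 chains (Cd3d, Cd3e and Cd3g) and Klrk1. Of the 14 genes 9 were tested, 7 were positive, and the median was 0.50. The CD3 chain Cd3e (1.11 ± 0.62) and the coreceptor chain Cd8a (0.85 ± 0.64) were highest. Klrc1, an inhibitory receptor for class I Qa-1 (-1.22 ± 0.67), was lowest, and Klra4, of the Ly49 family (-1.10 ± 0.43, unadjusted p = 0.0269, adjusted p = 0.499 in edgeR), was the only 1 of the 9 at an unadjusted p under 0.05. Their levels were far above those of T and NK cell markers, with Klra4 at means of 141 and 65.7 CPM and Klrc1 at 41.9 and 18 CPM (vehicle and liraglutide), and which cells they came from was not tested.

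The 10 genes varied together from tumor to tumor. Over the 45 pairs of genes and 10 tumors, r of log2 CPM ran from 0.877 (Tapbp and Psmb9) to 0.997 with a median of 0.979, and the median was 0.976 after the treatment means were subtracted and 0.960 without the 2 tumors farthest from the median of the mean level, vehicle tumors 1 and 2. The correlation with Nlrc5 was lowest for Tapbp (r = 0.929, Spearman's rho 0.939) and highest for Tap1 (r = 0.996, rho 0.988). The genes were listed as 1 pathway and share libraries and scaling, so these values are descriptions and carry no p. Among genes outside the list, those most like the mean of the 10 (standardized log2 CPM over 10 tumors) were Parp14, H2-Q4, Sp100, Gvin-ps4, H2-Q5, Gbp8, 9330175E14Rik, Igtp, Gbp7 and Gbp2, with r from 0.986 to 0.989. Gbp2, Gbp7, Gbp8 and Igtp encode GTPases, H2-Q4 and H2-Q5 are class I genes, and 9330175E14Rik is a noncoding gene that overlaps Nlrc5 on the other strand. Their log2 fold changes ran from 0.15 (H2-Q5) to 0.86 (Igtp) and none was called. In all, 495 of 17454 other genes had an r over 0.9.

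Leukocyte markers moved with the 10 genes, and their part in the differences was not tested. In bulk tumor RNA, fewer cells of a type and less RNA per cell cannot be told apart. The summed CPM of 4 leukocyte markers (Ptprc, Cd52, Coro1a and Laptm5) was 69.3, 60.8, 91.9, 141 and 137 in vehicle tumors 1 to 5 and 84.5, 83.9, 144, 131 and 142 in liraglutide tumors 1 to 5. Their log2 fold changes were positive in 3 of 4, none had an unadjusted p under 0.05, and a two-sided exact permutation test of the sums between treatments gave p = 0.405. The widest gap between the sums, 0.51 on the log2 scale, left 5 tumors below it (vehicle tumors 1 to 3 and liraglutide tumors 1 and 2) and 5 above it, and it was narrower than the range of the lower 5 (0.59). Across the 10 tumors the correlation of each gene with the leukocyte sum lay between r = 0.834 (Tapbp; rho 0.818) and r = 0.936 (Psmb10; rho 0.867), with permutation p from 0.00011 to 0.00325. Adjusted by Benjamini-Hochberg over the 40 relations of the genes with 4 marker sums, p was at most 0.00481 for r and 0.0168 for rho. The 10 genes moved nearly as 1, so the relations with a marker sum are not independent of each other. The sums also share libraries and scaling with the genes, and the share of all genes with such an r was not computed. Without vehicle tumors 1 and 2, farthest from the median sum, r lay between 0.614 and 0.855, and within treatments between 0.860 and 0.939. With 5 tumors on each side of the gap, no r was computed within a side. The 6 T and NK cell markers summed to 4.08, 4.36, 4.83, 12.6 and 20.4 CPM with vehicle and to 5.10, 10.9, 24.6, 15.8 and 21.1 CPM with liraglutide. Their r with the 10 genes lay between 0.861 (Tapbp; rho 0.927) and 0.959 (Tap2; rho 0.952), with permutation p from 2e-05 to 0.00234 and adjusted p of at most 0.00407 for r and 0.00825 for rho. Without vehicle tumors 1 and 2 it lay between 0.755 and 0.971, and within treatments between 0.832 and 0.948. A gap of 1.09 on the log2 scale set 4 low tumors apart from 6 with sums spread over 1.18, and within those 6 r ran from 0.572 (B2m) to 0.937 (Tapbp), as a description. These markers are near the floor (Cd3d was at 0.101 to 2.05 CPM, and Ncr1 at 0 in 1 tumor), and B cell markers and Ly6g were at or near 0.

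The summed macrophage and dendritic cell markers ran the other way, and Mrc1 was the most abundant of them. The sum of 8 of them was 786, 825, 909, 501 and 390 CPM in vehicle tumors 1 to 5 and 469, 579, 516, 502 and 383.5 CPM in liraglutide tumors 1 to 5. Its r with the 10 genes lay between -0.946 (Tapbp; rho -0.842) and -0.797 (Psmb9; rho -0.770), with permutation p from 0.00026 to 0.00602 and adjusted p of at most 0.00803 for r and 0.0359 for rho. Without vehicle tumors 2 and 3 it lay between -0.932 and -0.813, and within treatments between -0.935 and -0.757. A gap of 0.44 on the log2 scale set vehicle tumors 1 to 3 above the other 7, and within those 7 r lay between -0.813 (Tapbp) and -0.395 (B2m). Mrc1, the mannose receptor, was at 673, 724, 761, 312 and 217.5 CPM with vehicle and at 340, 457, 284, 339 and 190 CPM with liraglutide, and its r with the 10 genes lay between -0.956 and -0.840 in all 10 tumors and between -0.880 and -0.605 in the same 7. The other 7 markers, summed without Mrc1, had medians of 148 and 163.5 CPM (vehicle and liraglutide), and their r was positive, between 0.548 and 0.777 in the 7 tumors and between 0.759 (Tapbp) and 0.871 (Psmb10) in all 10. The split at a gap and the split by Mrc1 were chosen after the values were seen, so they carry no p. Across all 10 tumors the sum of 10 lung adenocarcinoma and epithelial markers had r between 0.569 (Tapbp; rho 0.515) and 0.698 (H2-D1; rho 0.491), with permutation p from 0.0251 to 0.0880, adjusted p from 0.0321 to 0.0880, and permutation p of rho from 0.134 to 0.180. Here the relation rested on vehicle tumors 1 and 5, as r lay between 0.089 and 0.309 without them (0.676 to 0.786 within treatments). Markers of skin and muscle, tissues around a flank tumor, were also unequal: the 4 keratinocyte markers summed to 8.36 to 17.6 CPM with vehicle and 6.65 to 200.5 CPM with liraglutide, and the 4 skeletal muscle markers to 25.1 to 215 and 50.9 to 264 CPM. All 4 keratinocyte markers had a positive log2 fold change (median 2.96) and 3 of 4 had an unadjusted p under 0.05. All 4 muscle markers were positive (median 0.83) with 0 under 0.05. Of 5 fibroblast markers 4 were positive (median 0.24) and 1 was under 0.05 in the higher direction, as were 3.97% of all genes. The keratinocyte sum was high in liraglutide tumors 2, 4 and 5 (200.5, 76.2 and 49.9 CPM). In liraglutide tumors 1 and 3 (6.65 and 6.82 CPM) it was below every vehicle tumor. Two-sided exact permutation tests of the sums gave p = 0.183 (keratinocytes), 0.119 (muscle) and 0.286 (fibroblasts). The part of these tissues in the values of the 10 genes was not tested.

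**Figure D5:**
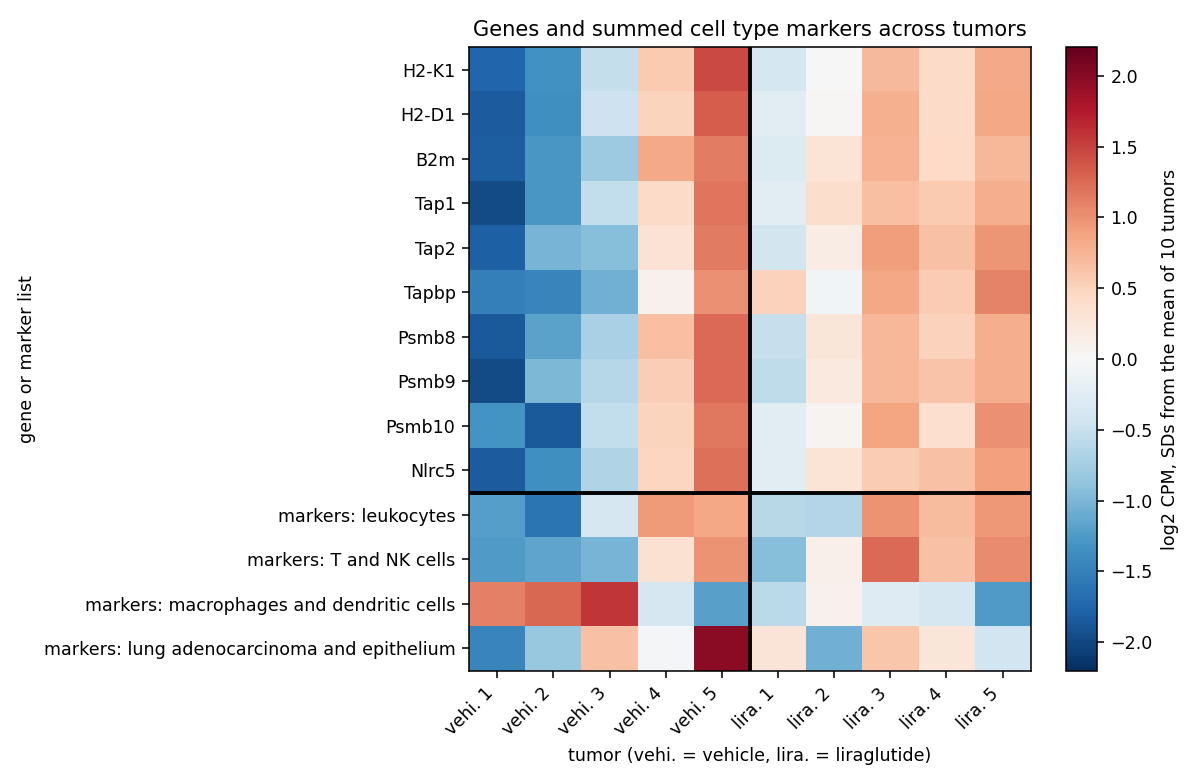
log2 CPM of the 10 genes and of 4 summed marker lists in each tumor (columns, vehicle left and liraglutide right of the line), in SDs from the mean of all 10 tumors on a color scale from blue (low) to red (high). The 10 genes share a low in vehicle tumor 1 or 2 and a high in vehicle tumor 5 or liraglutide tumor 5. The macrophage and dendritic cell sum is high in vehicle tumors 1 to 3, where Mrc1 makes up most of it. Without Mrc1 the other 7 markers sum to 112, 101 and 148 CPM there and to 190 and 173 CPM in vehicle tumors 4 and 5. With liraglutide they sum to 122.5 to 232 CPM.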

How the data were processed

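RNA from a frozen fragment of each of 10 tumors was depleted of ribosomal RNA and sequenced as read pairs of 100 bases. The authors mapped the reads with Bowtie and TopHat and deposited raw counts per gene from featureCounts, with no normalization. Per the study's methods the genome was GRCm39, while the submitters' processing notes list mm10, and 93.4% of the Ensembl identifiers were matched to GENCODE M39 without their version, so lengths and positions may differ in detail. Groups came from the sample titles. The labels do not say that tumors of 1 group came from separate experiments, so p-values measure the spread between these tumors.

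Counts were filtered (filterByExpr), scaled by TMM and tested in edgeR 4.0.16 (R 4.3.3) with the quasi-likelihood F test, treatment as the single factor, after a test of the scripts on simulated data. SEs are the absolute log2 fold change over the square root of F. log2 values had a prior count of 2, with 0.5 and 5 as alternatives for the ratios. Single genes and ratios were compared by exact permutation, and correlations by 100000 permutations. The members and gene lists were chosen with earlier results of these data known. The text names all members, the constitutive subunits, the 2 highest and 2 lowest genes of each list by log2 fold change, the 10 genes most correlated with the members, and the genes behind counts of 5 or fewer, except that some items are not reported here. Alternatives were limma-voom (limma 3.58.1), DESeq2 1.42.0 (independent filtering on or off), edgeR without TMM or with the size factors of DESeq2, a filter at 1 count or at 10 counts per tumor, robust empirical Bayes, a block for the tumor number, and each tumor left out.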

Additional observations from a re-analysis of the deposited data

Results flagged for a closer look

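Of 32 sets of 5 tumors looked at (10 genes, 3 constitutive subunits and 3 ratios in each treatment), 1 held a tumor that stood apart from the other 4. Psmb5, the constitutive subunit that Psmb8 replaces, was at 3.10 log2 CPM in liraglutide tumor 2, and the next tumor was at 3.84, a gap of 0.834 of the whole range. Chance flags about 1 in 20 such sets. The same tumor had the highest ratio of Psmb8 to Psmb5 of the liraglutide tumors, 2.25, and leaving it out moved the log2 fold change of Psmb5 from -0.03 to 0.11.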

How the results depend on the processing

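The 10 genes kept a positive log2 fold change and stayed uncalled under every alternative (4 had no adjusted p in DESeq2 with independent filtering) except for H2-K1, which was at -0.012 to 0.838 with a tumor left out (the lower without vehicle tumor 1), with adjusted p from 0.240 to 0.991 over the fits with all tumors. The number of all genes called was 0, but 17 with DESeq2 and 9 without its independent filtering, and 0 with each tumor left out. The number of the 10 genes with an unadjusted p under 0.05 was 0, and 1 (Tapbp) with both DESeq2 fits, limma-voom and all genes of at least 1 count (2.82%, 4.86% and 3.32% of all genes higher), and 0 to 6 with a tumor left out (2.21% to 7.12%). With the tumor number as a replicate block it was 5 (Tap1, Tap2, Tapbp, Psmb10 and Nlrc5), against 7.5% of all genes higher, with adjusted p from 0.240 to 0.397. Same-numbered tumors had residual correlations of 0.354, 0.565, -0.075, 0.068 and 0.389, not all over 0.1 (mean 0.26, against -0.07 for other numbers), and the tumors correlated best with their own number only in vehicle tumor 2 and liraglutide tumors 1 and 2, so the numbers were not taken as pairs. The median log2 fold change of the 10 genes was 0.86 with limma-voom and 0.83 with the block. Psmb5 changed sign with library size alone (0.028) and with a tumor left out (-0.12 to 0.11). Leaving out a tumor gave differences of 0.54 to 1.51 for the ratio of Psmb9 to Psmb6 (past the threshold without vehicle tumor 5). Depth limited no value of the 10 genes, and did limit Ifng, 5 of the receptor genes and 4 of the other heavy chains, which were too low to test.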
